A study of Ovis aries with 6 samples.

Results

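A set of 9 imprinted growth genes was followed in sheep cells of the adipose stromal vascular fraction that overexpressed the homeobox transcription factor MEOX2, and in their NC counterparts. They were H19 (row H19_1), DLK1, PEG3, MEST, GRB10, PLAGL1, IGF2R, NNAT and PEG10, found by their names in the deposited gene table, to which any other name starting with H19 was to be added. Of these 9 names, 8 had a row among the 26425 rows, PEG3 is not analysed here, and H19_1 was the sole row whose name starts with H19. The members were selected on the FPKM values of H19_1, which were lower with MEOX2 in these same libraries, so its difference is a description and carries no test. The other members share that contrast, and their calls are read beside the share of all genes called.

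The groups were 3 samples labelled as overexpressing MEOX2 and 3 samples labelled NC, all sheep cells whose cell type label is adipocyte. Their columns are headed pHBLV_MEOX2 and pHBLV_NC, so both groups share the prefix pHBLV. The sample titles do not explain this prefix or the letters NC. No allele, time point, breed, age or donor of the cells is given in the sources used here, so whether the 3 samples of a group came from separate animals or cultures is unknown. A p-value here therefore speaks of the variation among these 6 samples only, and that may be technical. MEOX2 had 152.7, 107.7 and 138.4 FPKM in MEOX2 samples 1 to 3, against 10.8, 10.1 and 9.03 FPKM in NC samples 1 to 3. MEOX2 was thus high in every library labelled as carrying it (log2 change 3.60, SE 0.13, limma adjusted p = 1.15e-05; exact two-sided permutation p = 0.1, the smallest 3 against 3 can give).

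FPKM is the number of reads scaled to gene length and to library size. Between 11772772 and 12230863 reads per library could be recovered from the table. On a principal component with 22.2% of the variance, NC sample 3 lay farthest from 0 (21.2), with NC sample 2 at the other end (-14.2). Results that rest on NC sample 3 are given with and without it. The label adipocyte was met in part. ADIPOQ, FABP4 and PLIN1 were detected in every library, LEP had 0 reads in all 6, and the stromal collagen COL1A1 reached 11333 FPKM.

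Imprinted genes are transcribed mainly from the maternal or the paternal copy, a choice set by DNA methylation laid down in the germ line. Many of them tune fetal growth. H19 is a maternally expressed long noncoding RNA that shares a control region with its neighbour IGF2, the paternally expressed growth factor that IGF2R clears from the cell surface. DLK1, also called Pref-1 in mouse, is a Notch-like membrane protein that holds mouse preadipocytes back from becoming fat cells, and in sheep its gene cluster carries the callipyge muscle trait. FPKM sums both parental copies, so these data hold no allele-specific measurement. In bulk samples, fewer cells of a type and less RNA per cell cannot be told apart.

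A pair of members differed most between the groups. H19_1 was 4.91-fold lower with MEOX2, and PEG10, a paternally expressed gene derived from a retrotransposon and needed for the mouse placenta, rose 1.73-fold. Of the 8 rows, 7 passed the filter, a 6-library mean of 1 FPKM or more. At a limma adjusted p of 0.05 over all 13121 genes tested, 1 of these 7 was higher (PEG10), 1 was lower (H19_1, whose fall chose the set) and 5 were not called, where 2.67% of all tested genes were called (1.51% higher and 1.16% lower). The groups did not overlap for 3 of the 7 (H19_1, PEG10 and GRB10), against 18.9% of all tested genes (9.6% higher and 9.33% lower). Because the contrast chose the set, nothing is read from these counts. The median log2 change of the 7 members was 0.12, beside -0.00273 for all tested genes.

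**Figure D1:**
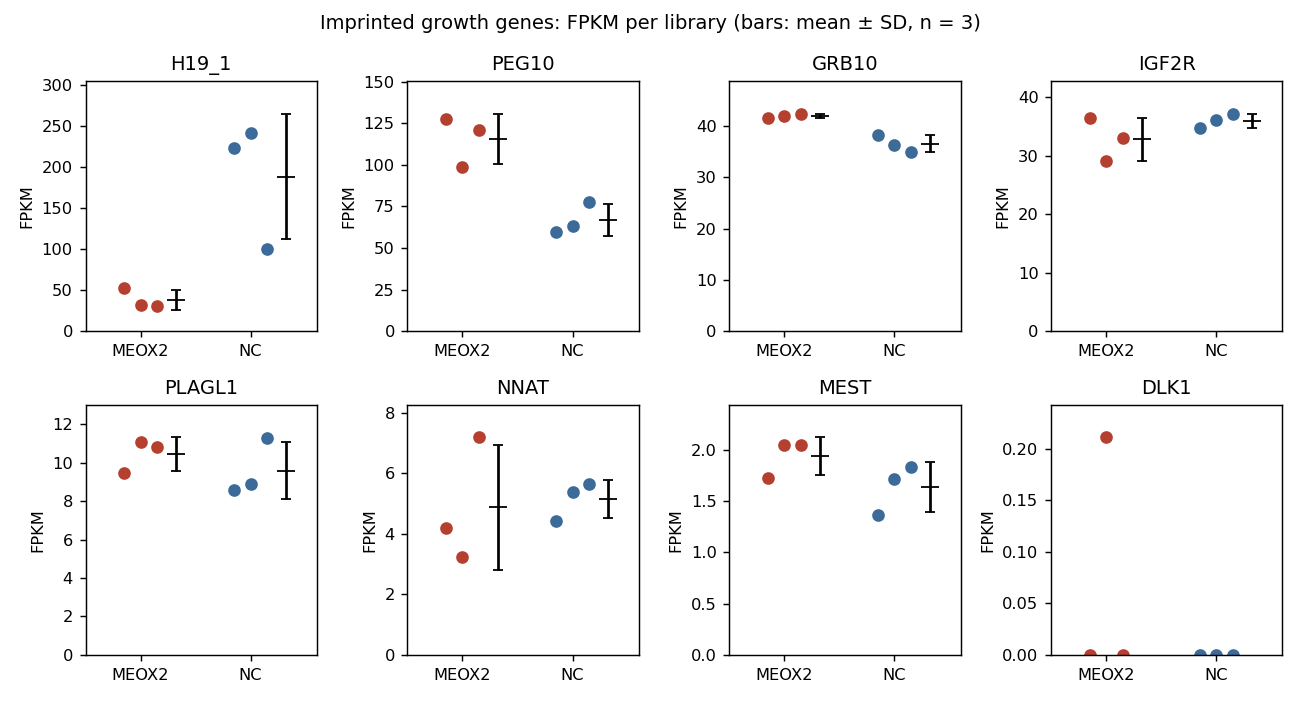
FPKM of each of the 8 rows in the 3 MEOX2 libraries (red) and the 3 NC libraries (blue), on linear axes that start at 0, with mean ± SD (n = 3) for the 7 rows tested. H19_1 lies between 30.3 and 52.7 FPKM in MEOX2 samples and between 100.6 and 241.6 FPKM in NC, PEG10 lies higher with MEOX2, and DLK1 is at 0 in 5 of the 6 libraries.

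H19_1 (ENSOARG00000024209, chromosome 21, 48608035 to 48608104, minus strand) is a row of 70 bases of biotype misc_RNA that covers a short stretch named after H19. Coordinates here are those of the deposited table, which names no genome build. It had 52.7, 32.1 and 30.3 FPKM in MEOX2 samples 1 to 3, against 223.8, 241.6 and 100.6 FPKM in NC samples 1 to 3. Every MEOX2 library was below every NC library. The mean was 38.4 ± 12.4 FPKM in MEOX2 samples and 188.7 ± 76.8 FPKM in NC samples (SD, n = 3 each), and the log2 change was -2.21 (SE 0.33).

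These values rested on 42, 28 and 26 reads in the MEOX2 libraries and 188, 207 and 87 reads in the NC libraries. NC sample 3 was low within its group. Its 95% Poisson interval of 80.6 to 124.1 FPKM did not reach those of NC samples 1 (192.9 to 258.2) and 2 (209.8 to 276.8), nor did it reach the interval of MEOX2 sample 1, 37.99 to 71.3 FPKM. These intervals cover counting error alone. Without NC sample 3, H19_1 was 6.06-fold lower and its log2 change was -2.61. Its coefficient of variation, the SD as a percent of the mean, was 32.4% with MEOX2 and 40.7% in NC. That was the widest spread of any tested member in NC, where the other 6 ranged from 3.29% to 15.4%. A read can overlap a 70-base row while lying mostly outside it, so the FPKM of H19_1 is not comparable with that of longer genes.

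**Figure D2:**
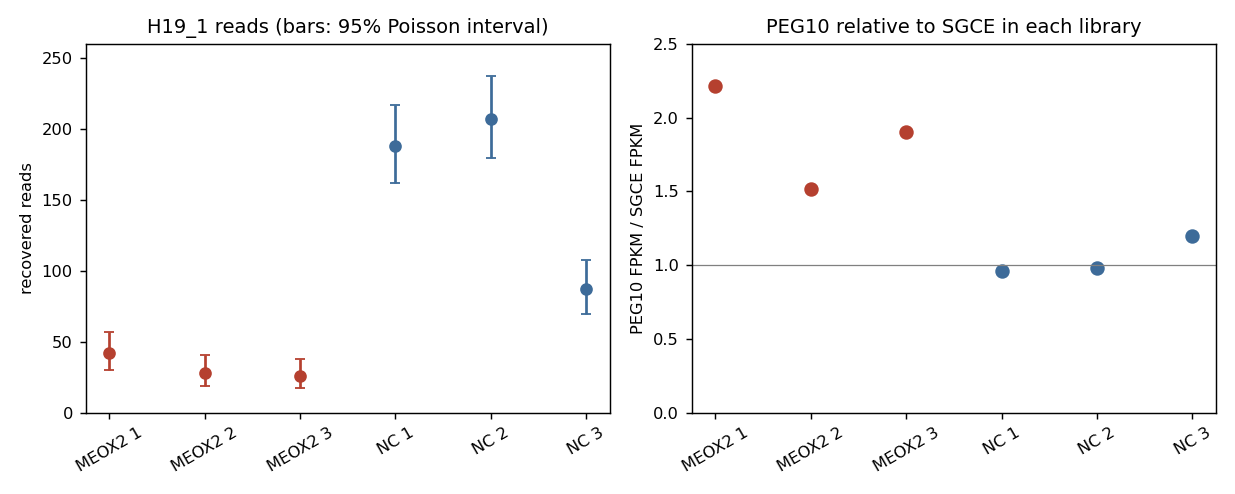
Left, reads of H19_1 recovered in each library with exact 95% Poisson intervals, where 42, 28 and 26 reads in MEOX2 libraries stand against 188, 207 and 87 in NC libraries. Right, the ratio of PEG10 FPKM to SGCE FPKM in each library, 1.52 to 2.22 in MEOX2 libraries and 0.962 to 1.201 in NC libraries, with the grey line at 1.

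IGF2, the reciprocal partner of H19, was almost silent. Its row (chromosome 21, 48655290 to 48680999, plus strand) began 47.2 kb beyond H19_1, which is on the minus strand. It had 0, 1 and 0 reads in MEOX2 samples 1 to 3, against 1, 0 and 1 reads in NC samples 1 to 3. In a library with 0 reads, up to 3 reads, or at most 0.1497 FPKM, could have been missed. A change of IGF2 was therefore not detectable at this depth. The nearest rows on either side with a mean of at least 1 FPKM were TSPAN32 and ENSOARG00000003783. TSPAN32, a tetraspanin gene 103.8 kb before H19_1, had 2.08 ± 0.264 FPKM in MEOX2 samples and 1.2001 ± 0.594 FPKM in NC samples (SD, n = 3 each; limma adjusted p = 0.326). ENSOARG00000003783, unnamed in the table, lay 154.2 kb after it and fell to 3.97, 6.66 and 4.76 FPKM in MEOX2 samples, against 11.8, 12.8 and 8.26 FPKM in NC samples (log2 change -0.97, SE 0.19, limma adjusted p = 0.0380). That call did not survive leaving out MEOX2 sample 1 or 3 or NC sample 1 or 2 (limma adjusted p 0.108 to 0.139).

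PEG10 (ENSOARG00000002475, chromosome 4, 11937474 to 11945244, plus strand, 1218 counted bases) had 127.3, 98.6 and 120.95 FPKM in MEOX2 samples 1 to 3, against 59.4, 63.3 and 77.4 FPKM in NC samples 1 to 3. All MEOX2 libraries exceeded all NC libraries. The mean was 115.6 ± 15.1 FPKM in MEOX2 samples and 66.7 ± 9.46 FPKM in NC samples (SD, n = 3 each). The log2 change was 0.79 (SE 0.13, limma adjusted p = 0.0150). At least 868 reads stood behind each value. The call was lost without MEOX2 sample 1 or 3 or NC sample 1 or 2 (limma adjusted p 0.0532 to 0.0659) and held without MEOX2 sample 2 (0.0162) or NC sample 3 (0.0129), while the log2 change stayed between 0.71 and 0.90 in all 6 of these fits.

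SGCE, which encodes epsilon-sarcoglycan and is paternally expressed in mouse and human, lies head to head with PEG10, only 569 bases away on the other strand. It had 57.4, 64.98 and 63.5 FPKM in MEOX2 samples, against 61.7, 64.8 and 64.4 FPKM in NC samples. The groups overlapped, and the log2 change was -0.04 with a 95% interval of -0.21 to 0.13 (limma adjusted p = 0.890). Within each library, the ratio of PEG10 to SGCE was 2.22, 1.52 and 1.90 in MEOX2 samples and 0.962, 0.977 and 1.201 in NC samples. The ratios did not overlap (mean 1.88 ± 0.351 with MEOX2 and 1.05 ± 0.134 in NC, SD, n = 3 each; exact two-sided permutation p = 0.1, the lowest possible here). The nearest row on the far side with a mean of at least 1 FPKM was PON2, a paraoxonase gene 567.1 kb away, at 82.6 ± 5.05 FPKM in MEOX2 samples and 87.2 ± 1.84 FPKM in NC samples (SD, n = 3 each). Between them lay PPP1R9A, a neurabin gene imprinted in mouse and human, which did not pass the filter and was not tested. It had 20, 13 and 26 reads in MEOX2 samples, against 6, 9 and 7 reads in NC samples, without overlap; this gene was chosen after its values were seen.

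**Figure D3:**
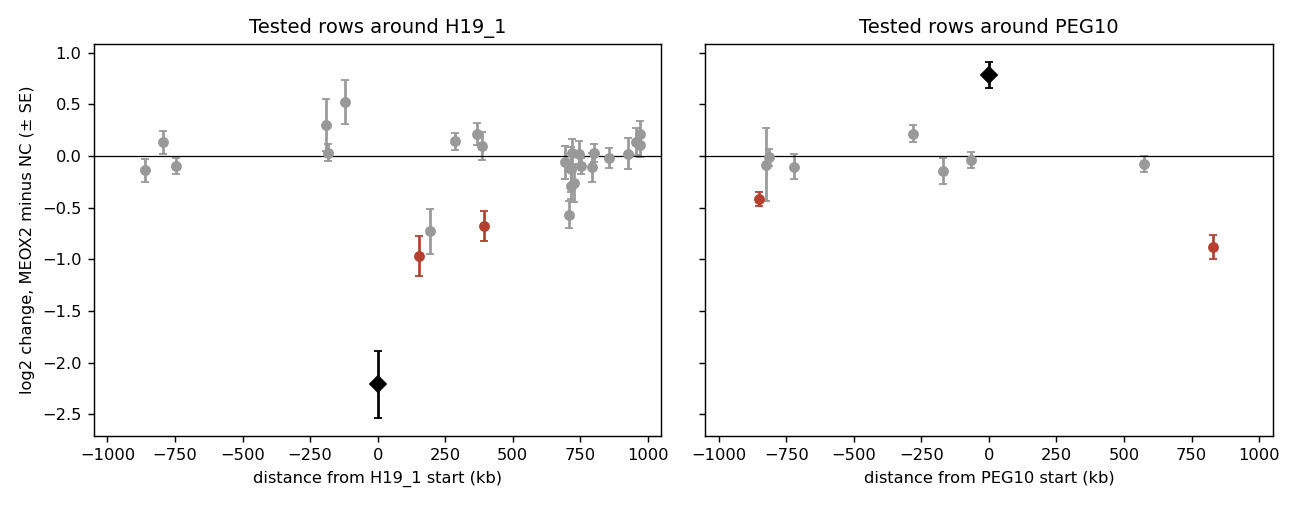
Log2 change (MEOX2 minus NC, ± SE) of every tested row within 1000 kb of the start of H19_1 (left, 27 rows) and PEG10 (right, 9 rows), by distance in kb, with the member itself as a black diamond and rows past the limma threshold in red. Near H19_1 the 2 called rows lie 154.2 and 394.9 kb to the right, and near PEG10 the 2 called rows lie far out, on either side.

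Within 1000 kb of H19_1, a window chosen after the values were seen, 27 other rows were tested. None was called higher and 2 were lower, beside 1.51% higher and 1.16% lower among all tested genes. The median log2 change of the 27 was 0.02. The second of the 2 was ENSOARG00000004979, also unnamed, with a log2 change of -0.67 (limma adjusted p = 0.0496). CD81, a tetraspanin gene of the H19 domain's neighbourhood that is imprinted in mouse, was at 323.8 ± 23.3 FPKM in MEOX2 samples and 317.0 ± 23.2 FPKM in NC samples (SD, n = 3 each). Around PEG10, 9 rows were tested and 2 were called lower, beside 1.16% of all tested genes. These were TFPI2, a secreted protease inhibitor that is imprinted in mouse placenta, and PDK4, a kinase that restrains pyruvate dehydrogenase. PDK4 started 831.3 kb away and had a log2 change of -0.88 (limma adjusted p = 0.00697). Nothing about either region is read from these counts of few rows.

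The adaptor GRB10 and the receptor IGF2R act on growth factor signalling from the cell surface. GRB10, which binds the insulin and IGF1 receptors and restrains their signals (ENSOARG00000013819, chromosome 4, 5227204 to 5293504), had 41.5, 42.0 and 42.4 FPKM in MEOX2 samples, against 38.3, 36.4 and 35.0 FPKM in NC samples. The groups did not overlap, but the difference was small. Its log2 change was 0.19 with a 95% interval of 0.03 to 0.36, at an unadjusted p of 0.0266 in limma, and it was not called over all genes (limma adjusted p = 0.271). IGF2R (ENSOARG00000004632, chromosome 8, 82874886 to 82959397) had 36.4, 29.1 and 32.9 FPKM in MEOX2 samples, against 34.7, 36.1 and 37.1 FPKM in NC samples. MEOX2 sample 1 lay inside the NC range, and the log2 change of -0.14 had a 95% interval of -0.35 to 0.08 (limma adjusted p = 0.615).

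PLAGL1, a zinc finger transcription factor that in mouse regulates other imprinted genes, H19 among them (chromosome 8, 68288783 to 68318022), was at 9.44 to 11.1 FPKM in MEOX2 samples and at 8.57 to 11.3 FPKM in NC samples. Its log2 change was 0.12, with a 95% interval of -0.15 to 0.39 (limma adjusted p = 0.760). The NC range enclosed the MEOX2 range. HYMAI, a noncoding RNA of the PLAGL1 locus, had reads in NC sample 1 alone, at 0.352 FPKM.

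MEST and NNAT are paternally expressed. MEST, a hydrolase-like protein whose level in mouse fat follows the growth of fat depots (chromosome 4, 94279205 to 94293030), had 1.72, 2.04 and 2.04 FPKM in MEOX2 samples, against 1.37, 1.72 and 1.83 FPKM in NC samples. The groups overlapped (log2 change 0.16, 95% interval -0.18 to 0.49, limma adjusted p = 0.735). NNAT, a small membrane proteolipid (chromosome 13, 66032357 to 66033952), had 4.18, 3.24 and 7.18 FPKM in MEOX2 samples, against 4.43, 5.39 and 5.64 FPKM in NC samples. It rested on 22 to 48 reads per library, and MEOX2 sample 3 was above all others. Its log2 change of -0.12 had the widest interval of the 5 uncalled members, -0.62 to 0.39 (limma adjusted p = 0.889). BLCAP, within whose locus NNAT lies in mouse and human, was 1.95 kb away here and stood at 55.2 ± 6.84 FPKM in MEOX2 samples and 57.8 ± 9.57 FPKM in NC samples (SD, n = 3 each).

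DLK1 (ENSOARG00000002307, chromosome 18, 64328206 to 64334917) was close to absent. It had 0, 2 and 0 reads in MEOX2 samples 1 to 3, against 0 reads in each NC sample. The 2 reads correspond to 0.211 FPKM, and 0 reads allow up to 3 reads, or 0.319 to 0.346 FPKM. DLK1 did not pass the filter, and no difference could be detected at this depth. Few reads fell on the stretch of its cluster that follows. From DLK1 to the last named microRNA row (chromosome 18, 64328206 to 64660527), 105 rows were listed, 55 of them microRNA rows, and 96 had 0 reads in every library. Whether the NEBNext Ultra libraries can hold mature microRNAs was not tested, so no microRNA level is read from these rows. The short row MEG3_2 was the 1 row of this stretch that passed the filter, on a few reads. The stretch held 8, 12 and 1 reads in MEOX2 samples 1 to 3, against 2, 1 and 1 reads in NC samples 1 to 3. Of these, the 5 short rows named MEG3 and MEG8, the maternal noncoding RNAs of the cluster, held 6, 6 and 0 reads in MEOX2 samples and 1, 1 and 0 reads in NC samples. The imprinted gene DIO3 (chromosome 18, 65194763 to 65195158) lies beyond this stretch and passed the filter. It had 10, 5 and 5 reads in MEOX2 samples, against 6, 6 and 9 reads in NC samples (limma adjusted p = 0.970).

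On the FPKM scale, with the limit stated for the short row H19_1, the level of PEG10 was the highest of the 8 in MEOX2 samples, followed by GRB10, H19_1 and IGF2R, whose values overlapped in part (41.5 to 42.4, 30.3 to 52.7 and 29.1 to 36.4 FPKM). In NC samples H19_1 was highest, followed by PEG10, while GRB10 (35.0 to 38.3 FPKM) and IGF2R (34.7 to 37.1 FPKM) overlapped. In both groups PLAGL1, NNAT, MEST and DLK1 followed in that order.

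**Figure D4:**
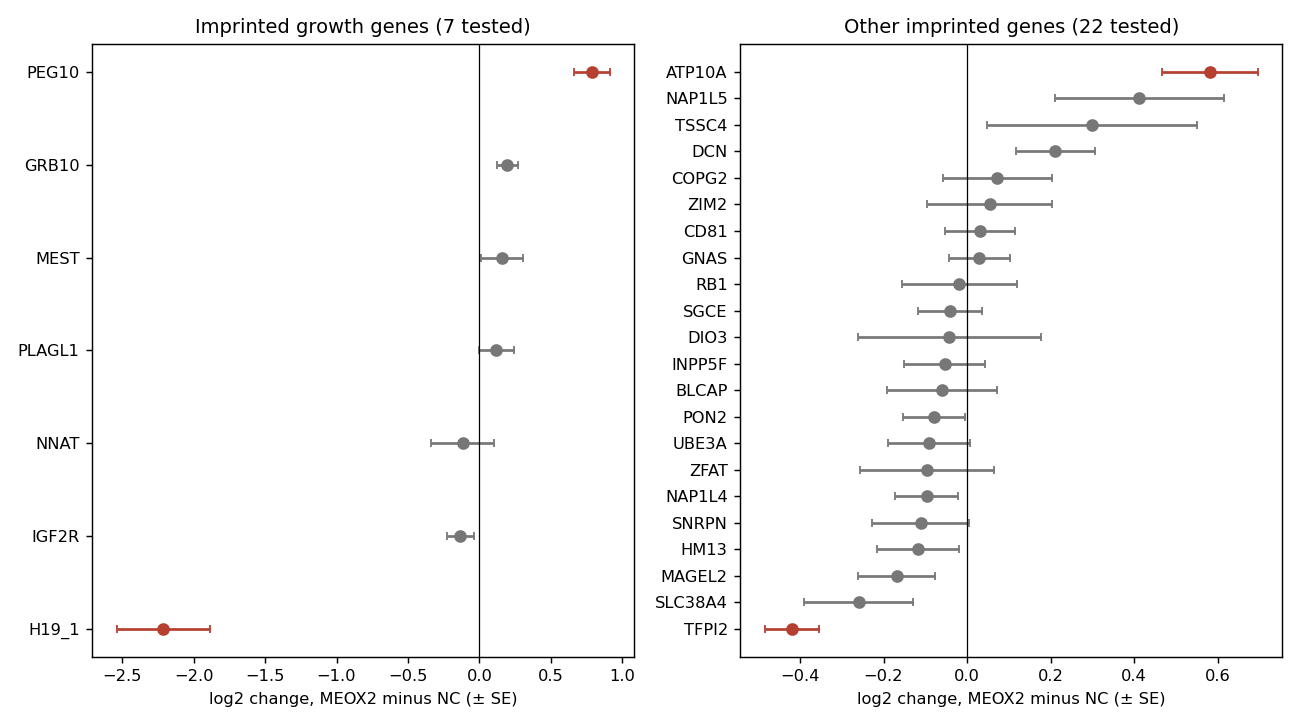
Log2 change (MEOX2 minus NC, ± SE) of the 7 members tested (left) and of 22 other imprinted genes tested (right, on its own scale), with rows past the limma threshold in red. H19_1 at -2.21 and PEG10 at 0.79 stand farthest from 0 among the members, and ATP10A at 0.58 and TFPI2 at -0.42 among the others.

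Other imprinted genes were described from a list of 63 names reported as imprinted in at least 1 mammal, mostly mouse or human. Of these, 40 had a row and 22 passed the filter. By limma, ATP10A rose, TFPI2 fell and 20 were not called, so that 9.09% were called, beside 2.67% of all tested genes. The median log2 change of the 22 was -0.05, beside -0.00273 for all tested genes. Nothing particular to the list is read from this. ATP10A, a phospholipid-transporting ATPase (chromosome 18, 1810732 to 1994082), had 4.46, 4.45 and 4.67 FPKM in MEOX2 samples, against 2.74, 2.44 and 2.92 FPKM in NC samples (log2 change 0.58, SE 0.11, limma adjusted p = 0.0364). TFPI2 (chromosome 4, 11085935 to 11089573) had 304.8, 301.6 and 310.2 FPKM in MEOX2 samples, against 419.2, 396.1 and 410.96 FPKM in NC samples (log2 change -0.42, SE 0.06, limma adjusted p = 0.0136). Neither gene's groups overlapped. The call of ATP10A was lost without any single library (limma adjusted p 0.0507 to 0.144), and that of TFPI2 without MEOX2 sample 2, MEOX2 sample 3 or NC sample 1 (0.0516 to 0.0906).

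Among the abundant genes of this list, the matrix proteoglycan DCN was at 3629 ± 64.7 FPKM in MEOX2 samples and 3149 ± 379.4 FPKM in NC, and GNAS, the stimulatory G protein alpha subunit, was at 209.2 ± 13.8 FPKM in MEOX2 samples and 204.7 ± 3.68 FPKM in NC samples (SD, n = 3 each). Neither was called (limma adjusted p = 0.388 for DCN and 0.918 for GNAS). Of the 18 rows left out by the filter, 13 stayed below 5 reads in all libraries, IGF2 among them.

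Around IGF2R and GRB10, 14 of 20 genes of the IGF2 and insulin receptor axis were tested. By limma none rose, 3 fell and 11 were not called, and limma voom called 4. The 3 genes are 21.43% of those tested, beside 2.67% of all tested genes called in either direction and 1.16% lower, and the median log2 change was -0.05, beside -0.00273 for all tested genes. The 3 were binding proteins that hold IGFs outside the cell: IGFBP-5 (84.9 ± 4.19 FPKM in MEOX2 samples and 135.8 ± 6.73 FPKM in NC), IGFBP3 (68.2 ± 14.7 FPKM with MEOX2 against 152.6 ± 38.6 FPKM in NC) and IGFBP2 (5.80 ± 0.290 FPKM with MEOX2 against 11.97 ± 3.22 FPKM in NC; SD, n = 3 each). Their limma adjusted p values were 0.00317, 0.0210 and 0.0355. The more abundant binding proteins IGFBP-6 and IGFBP4 were not called (limma adjusted p = 0.952 and 0.415). IGFBP-6 was at 721.3 ± 107.4 FPKM with MEOX2 against 741.2 ± 117.2 FPKM in NC. IGFBP4 was at 586.0 ± 16.4 FPKM with MEOX2 against 529.1 ± 23.6 FPKM in NC (SD, n = 3 each). Leaving out single libraries ended the call of IGFBP3 in 4 fits of 6 (limma adjusted p 0.0547 to 0.0726; MEOX2 sample 1 or 3, NC sample 1 or 2) and that of IGFBP2 in 5, all but the fit without NC sample 3 (0.0773 to 0.134). Without a filter on low values neither was called (limma adjusted p = 0.0878 for IGFBP3 and 0.115 for IGFBP2), IGFBP3 was lost with robust variance estimates (0.0575) and IGFBP2 without an intensity trend (0.0582). IGFBP7, the closest to the threshold of the rest, was at 262.5 ± 25.5 FPKM in MEOX2 samples and 200.5 ± 5.43 FPKM in NC samples (limma adjusted p = 0.0555). It was past the threshold as higher with limma voom (adjusted p = 0.0113), robust variance estimates (limma adjusted p = 0.0469), a filter at a mean of 5 FPKM (0.0409) and without MEOX2 sample 1 (0.0335). The receptors IGF1R and INSR had log2 changes of 0.00159 (95% interval -0.22 to 0.22) and -0.09 (-0.35 to 0.16). M6PR, another gene of the list, was at 119.1 ± 2.60 FPKM in MEOX2 samples and 128.0 ± 16.6 FPKM in NC.

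None of the 7 tested genes of the DLK1 and Notch axis passed limma or limma voom, and at an unadjusted p below 0.05 in limma there was 1. That gene was HES1, a Notch target (log2 change -0.55, 95% interval -1.03 to -0.07, limma adjusted p = 0.284), which falls outside the naming rule and was chosen after its value was seen. NOTCH2, the most abundant receptor of the list, was at 53.4 ± 4.51 FPKM in MEOX2 samples and 60.3 ± 8.49 FPKM in NC samples (SD, n = 3 each). Of 14 tested genes that place, keep or remove DNA methylation or act at imprints, limma and limma voom called none, and 1 lay below an unadjusted p of 0.05 in limma. CTCF, which binds the H19 control region in mouse and human, had a log2 change of -0.03 (95% interval -0.23 to 0.16). TRIM28, a corepressor that guards imprints, was at 94.4 ± 2.08 FPKM in MEOX2 samples and 99.1 ± 11.1 FPKM in NC. ZFP57, the zinc finger protein that recruits it, was at 14.998 ± 1.18 FPKM with MEOX2, against 15.8 ± 1.74 FPKM in NC. The methyltransferase DNMT3B was at 16.1 ± 0.772 FPKM with MEOX2, against 16.7 ± 0.514 FPKM in NC (SD, n = 3 each).

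The 3 genes whose log2(FPKM + 1) values followed H19_1 most closely over the 6 libraries, of 10352 tested rows with a symbol, were CALR, an endoplasmic reticulum chaperone (Pearson r 0.990), TMEM258, a subunit linked to protein glycosylation (0.988), and RBM23, an RNA-binding protein (0.986). These correlations are descriptions over 6 libraries in 2 groups, and the group difference enters them. CALR had 1228, 1171 and 1132 FPKM in MEOX2 samples, against 1543, 1659 and 1379 FPKM in NC samples, with NC sample 3 again the lowest of its group. None of the 3 was called (limma adjusted p 0.0662, 0.241 and 0.564).

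Most tested markers of mature fat cells were lower with MEOX2, as H19_1 was. Of 8 tested, 5 fell by limma (ADIPOQ, FABP4, PPARG2, PLIN1 and CIDEC), or 62.5% beside 2.67% of all tested genes called, and limma voom called 6. HSL, CEBPA and LPL were not called by limma, and LPL, the lipoprotein lipase, was at 39.7 ± 4.28 FPKM in MEOX2 samples and 39.5 ± 2.45 FPKM in NC samples (SD, n = 3 each). The adipocyte list summed to 129.0 to 150.9 FPKM in MEOX2 samples, against 300.9 to 362.4 FPKM in NC samples. FABP4 led these sums, at 79.6 ± 9.72 FPKM with MEOX2 against 235.3 ± 26.3 FPKM in NC (SD, n = 3 each). Of 5 tested smooth muscle and pericyte markers, CNN1 and CSPG4 rose by limma and 3 were not called, while limma voom called 3. That list summed to 713.2 to 759.2 FPKM in MEOX2 samples, against 616.1 to 622.6 FPKM in NC samples. TAGLN, not called by limma (adjusted p = 0.0819), led these sums. It was at 502.2 ± 21.4 FPKM with MEOX2 against 414.9 ± 3.37 FPKM in NC (SD, n = 3 each). The part of either cell type in the results for H19_1 and PEG10 was not tested. None of 10 tested stromal progenitor markers was called by limma (1 by limma voom, 5 at an unadjusted p under 0.05), with sums of 17621 to 19472 FPKM in MEOX2 samples and 16766 to 18842 FPKM in NC. The 8 skeletal muscle rows reached at most 0.742 FPKM in any library, with PAX7, MYF5, MYOD1 and MYOG at 0 reads, and the 4 endothelial rows at most 0.223 FPKM. Of 9 leukocyte markers 3 were tested and none was called by limma (1 by limma voom, 1 at an unadjusted p under 0.05), with sums of 120.7 to 131.5 FPKM in MEOX2 samples and 113.3 to 121.1 FPKM in NC, led by CD14 at 117.0 ± 7.01 FPKM in MEOX2 samples and 105.2 ± 4.42 FPKM in NC samples, and CD68 was at 7.57 ± 1.56 FPKM in MEOX2 samples and 9.37 ± 0.469 FPKM in NC samples (SD, n = 3 each).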

How the data were processed

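TRIzol RNA went into NEBNext Ultra libraries, per the labels' protocols. The submitters' processing notes name DESeq2 1.20.0, featureCounts 1.5.0-p3, HISAT2 2.0.5, fastp and CASAVA 1.8, with no settings. The authors deposited FPKM values, with gene lengths and coordinates. For build, annotation and strand setting, the sources used here say nothing, and overlapping or antisense genes cannot be told apart. FPKM multiplied by gene length gave whole reads for 100% of nonzero values, within 0.001 read.

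Rows averaging 1 FPKM or more were taken to log2(FPKM + 1) and fitted by limma 3.58.1 (R 4.3.3) with an intensity trend and the group as sole term. P-values were adjusted by Benjamini-Hochberg over all 13121 rows. Fold changes on this scale understate those of low genes. Replicate numbers were not used as pairs in this fit. The fit was tested on simulated reads of this comparison (13099 genes run). Calls covered 87.9% of 99 genes set to a 2-fold change and 57.6% of 99 set to 1.5-fold, and 5 calls were false. The simulation gave every gene the same spread beyond counting error, unlike the real genes, and changed no genes with the fewest reads. These values were not split by spread or by read number. Whether they hold for H19_1 (coefficient of variation 40.7% in NC samples) or NNAT (42.3% in MEOX2 samples) was not tested. Chi-square values per gene between libraries of 1 group were 3.62 to 11.8, above the value of about 1 of pure sampling.

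Members and lists were chosen with earlier results of these data known. Named genes were all members, MEOX2, called genes of the 4 lists and up to 4 of their most abundant members, the nearest expressed row on either side of each member, and the 3 rows most like H19_1. Through RefSeq synonyms (ARS-UI_Ramb_v3.0), 2 names of the IGF axis were matched. Python 3.11.15, pandas 2.3.3, scipy 1.17.1 and matplotlib 3.10.9 were used. Alternatives were other pseudocounts, filters, variance models, centring, a replicate block, each library left out and limma voom on the recovered reads, the last added after seeing the data.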

Additional observations from a re-analysis of the deposited data

How the results depend on the processing

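No called gene among the 44 named and followed through 15 alternatives changed sign, and MEOX2 passed in each. H19_1 ranged from -2.61 to -1.98 and PEG10 from 0.71 to 0.90 in log2 change; NNAT, never called, took the other sign in 1 alternative. Against 350 genes called in the fit reported, there were 194 without a filter on low values, 574 with limma voom, 242 with the replicate block and 117 to 276 with single libraries left out; which genes these share was not counted. Members past the threshold include H19_1, whose fall chose the set, so their counts are a description. They numbered 2 in the fit reported, 0 without a filter (limma, 3 at an unadjusted p under 0.05), 1 with robust variance estimates (PEG10) and 1 to 2 with single libraries left out. PEG10 then had a limma adjusted p of 0.0599 without a filter. Other imprinted genes past the threshold numbered 2, against 1 without a filter, 1 at a mean of at least 5 FPKM, where ATP10A was not tested, 1 with the replicate block (ATP10A lost, limma adjusted p = 0.0857) and 0 to 1 with single libraries left out. The cause of these shifts was not tested. Some of these fits also differ from the fit reported in the number of samples or rows. Same-numbered samples deviated together with correlations of -0.0747, 0.0204 and -0.00417. These values show no pairing by replicate number over all genes, but whether the samples were paired is not known. Fits with TMM scaling, by limma voom and by edgeR's quasi-likelihood test, were planned but not run because the deposited unit is FPKM. The limma voom fit given here was not planned and used recovered reads with median-of-ratios scaling in place of TMM. Summing H19 rows gave no other value, as there is 1 such row. Depth limits DLK1, IGF2 and NNAT most. The short H19_1 row also rests on few reads with MEOX2, but its NC samples differed by more than counting error.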

Other observations

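Within 1000 kb of the other members, a window chosen after the values were seen, 2 more rows passed the threshold. They were 1 of 12 rows tested around IGF2R and 1 of 24 around NNAT, beside 2.67% of all tested genes. SOD2, the mitochondrial superoxide dismutase, started at -252.2 kb relative to the start of IGF2R and fell by 0.41 on the log2 scale (limma adjusted p = 0.0204). MYL9, a myosin regulatory light chain of contractile cells, started at -815.7 kb relative to NNAT and rose by 0.41 (limma adjusted p = 0.0152). None of the 3, 9 and 11 rows tested around GRB10, PLAGL1 and MEST was called by limma.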
